A study of Mus musculus with 12 samples.

Results

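The 7 genes described here, Nlrp3, Aim2, Pycard, Casp1, Casp4, Casp8 and Gsdmd, encode core parts of the inflammasome and of pyroptosis, the lytic death that inflammasomes can trigger. They were chosen by name as the sensors, adaptor, caspases and pore-forming executor of this pathway, and all 7 were found among the 20551 genes of the count table and passed the filter on low counts that left 13729 genes for testing. The libraries were made from RNA of airway macrophages (AMs) taken from 6-week-old C57BL/6 mice, either wild-type (WT) littermates or mice with the Scnn1b transgene (Scnn1b-Tg). The transgene overexpresses the beta subunit of the epithelial sodium channel from a promoter active in secretory cells of the airway lining, and the mice develop mucus obstruction, so AMs meet its effects from outside. Cells of each pool were kept for 12 h in medium alone or with 100 ng/ml lipopolysaccharide (LPS) of P. aeruginosa, which gave 12 libraries in 4 groups of 3 (WT medium, WT LPS, Scnn1b-Tg medium, Scnn1b-Tg LPS).

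A pool combined the lavages of 3 to 4 animals. The 6 pools, numbered by the sample titles, were WT 16, 17 and 18 and Scnn1b-Tg 17, 18 and 19. By these numbers each pool gave 1 medium and 1 LPS library. WT 16, WT 17 and Scnn1b-Tg 17 belonged to library batch 1, and WT 18, Scnn1b-Tg 18 and Scnn1b-Tg 19 to batch 2. Accounts of the isolation differ: the sample descriptions give plate-adherent lavage cells, whereas the methods of the study give AMs sorted from digested lungs of female mice by CD45, Siglec-F and CD11c. Libraries held 48.2 to 60.9 M counts and 14918 to 16165 detected genes. All 12 listed AM markers were detected in every group. Of 10 neutrophil markers, S100a9 and Ngp were at the detection floor in every group, and Ly6g, Retnlg and Mpo were not analysed here. S100a8 (2.86 to 11.1 CPM over the group means), Csf3r (2.77 to 7.66 CPM) and Cxcr2 were detected. Cxcr2 in medium was 3.63 to 4.35 CPM in WT and 5.55 to 9.64 CPM in Scnn1b-Tg libraries. With LPS it averaged 0.186 and 0.232 CPM. Mean Csf3r was also lower with LPS, at 6.53 and 2.86 CPM in WT and 7.66 and 2.77 CPM in Scnn1b-Tg libraries. Mean S100a8 was higher with LPS, at 2.86 and 7.32 CPM in WT and 4.53 and 11.1 CPM in Scnn1b-Tg libraries. The neutrophil markers summed to 12.2 to 19.5 CPM in WT and 12.9 to 22.3 CPM in Scnn1b-Tg libraries. Scnn1b itself averaged at most 0.385 counts per M counts (CPM) in any group. Summed epithelial markers, led by Scgb1a1, were 81.5 to 120 CPM in WT and 36.5 to 75.4 CPM in Scnn1b-Tg libraries, and the part of neutrophil and epithelial transcripts in the results below was not tested.

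Inflammasomes are assembled in the cytosol when a sensor such as NLRP3 or AIM2 recruits the adaptor ASC, the product of Pycard, which gathers and activates caspase-1. Caspase-1 matures interleukin-1 beta and interleukin-18 and cleaves gasdermin D, whose released fragment forms pores in the plasma membrane. Mouse Casp4 encodes the caspase long called caspase-11, which binds LPS inside the cell and cleaves gasdermin D without a classical inflammasome, and caspase-8 links these pathways to apoptosis and holds back necroptosis. In macrophages, LPS seen at the cell surface is a classical priming signal that raises transcripts of this pathway, whereas assembly and cleavage happen at the protein level and are not visible in RNA.

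LPS raised Nlrp3, Casp4 and Casp1 in AMs of both genotypes, lowered Casp8 slightly in both, and left the other members with small or variable differences. In WT AMs, 3 members rose and 1 fell at an adjusted p under 0.05 (edgeR quasi-likelihood test, adjusted over all genes tested), against a background of 30.9% of all tested genes called in this comparison (15.2% higher and 15.7% lower). In Scnn1b-Tg AMs, 4 members rose and 1 fell, against 36.7% of tested genes (18.8% higher and 17.8% lower). The additional gene in Scnn1b-Tg AMs was Gsdmd, whose log2 change was 0.22 in WT (not called) and 0.29 in Scnn1b-Tg AMs. The difference between these responses was 0.07 (SE 0.11, edgeR adjusted p = 0.999). The median log2 fold change of the 7 members was 0.22 in WT and 0.29 in Scnn1b-Tg AMs, beside 0.00 and -0.02 over all tested genes. Blocking by pool, which gave both a medium and an LPS library, edgeR called 6 members in each genotype (36.6% of tested genes in WT and 42.1% in Scnn1b-Tg AMs), and limma voom with the pool as a random effect called 7 and 5 (38.6 and 45% of genes). DESeq2 called 6 members in WT and 5 in Scnn1b-Tg AMs (35.1 and 40.3% of genes). In each genotype the LPS libraries of 5 members lay wholly above or below the medium libraries, where 38.7% of tested genes did so in WT and 43.8% in Scnn1b-Tg AMs.

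**Figure D1:**
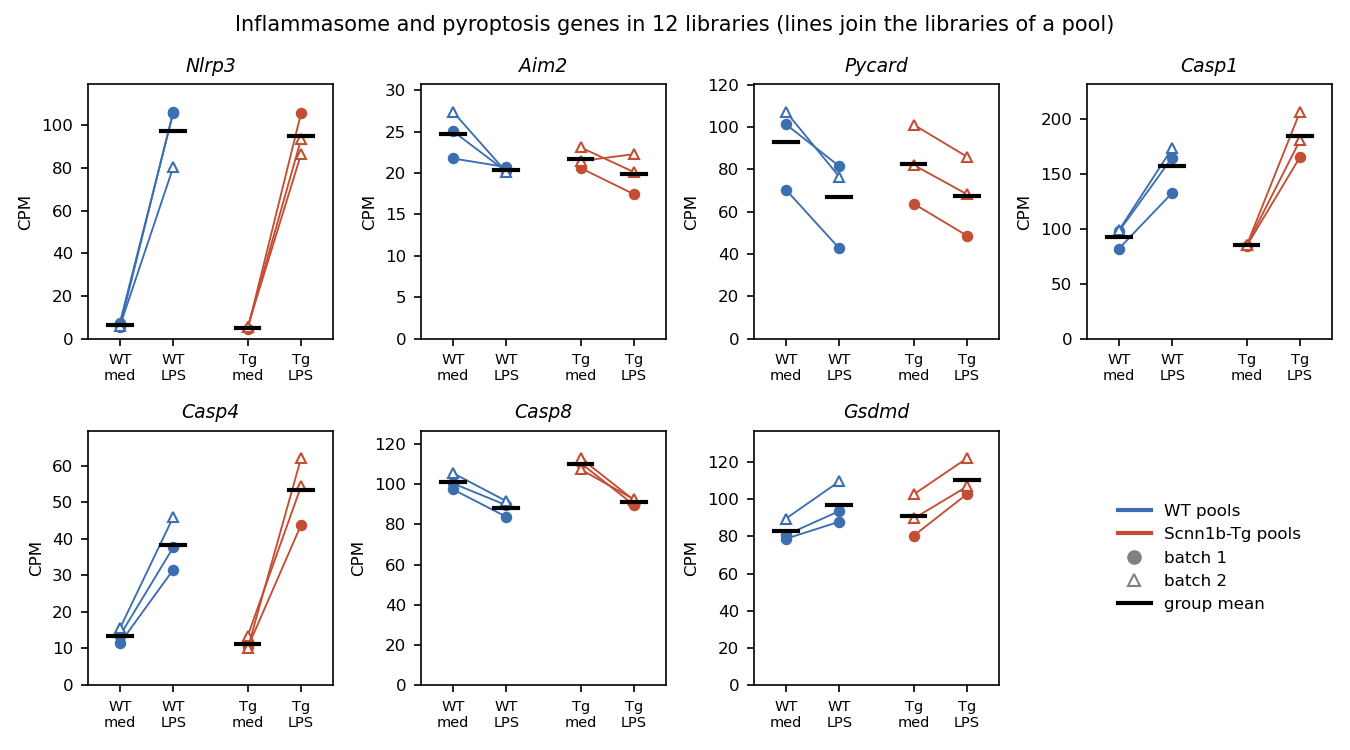
Levels of the 7 genes (y axis, CPM, starting at 0, with a scale of its own in each panel) in the 4 groups of 3 libraries. Thin lines join the medium and LPS library of a pool, symbols mark the batch and black bars the group mean. Nlrp3, Casp4 and Casp1 lines rise in all 6 pools, Casp8 and Pycard lines fall in all 6, and the Pycard lines of pools WT 17 and Scnn1b-Tg 17 lie lowest in each genotype.

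Nlrp3 (ENSMUSG00000032691, mm10 chromosome 11, 59541568 to 59566956, plus strand), the sensor that responds to potassium efflux and many other signs of cell damage, was the member that changed most. In medium it stood at 7.49, 5.52 and 5.83 CPM in pools WT 16, 17 and 18 and at 4.55, 5.23 and 5.59 CPM in Scnn1b-Tg 17, 18 and 19. After LPS, WT pools held 106, 106 and 80.4 CPM and Scnn1b-Tg pools 106, 93.4 and 86.4 CPM. Every LPS library lay far above every medium library, and the genotypes overlapped in both conditions. The group means were 6.28 ± 1.06 and 97.5 ± 14.9 CPM in WT and 5.12 ± 0.525 and 95.2 ± 9.74 CPM in Scnn1b-Tg AMs (SD, n = 3 each). In WT AMs the fitted rise was 15.5-fold (log2 3.95, SE 0.15, edgeR adjusted p = 4.19e-08). Scnn1b-Tg AMs showed a rise of 18.5-fold (log2 4.21, SE 0.16, edgeR adjusted p = 2.54e-08).

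Aim2 (ENSMUSG00000037860, chromosome 1, 173350879 to 173466040, plus strand), the sensor of double-stranded DNA in the cytosol, did not follow Nlrp3. Its medium levels were 25.1, 21.8 and 27.4 CPM in WT and 20.6, 23.1 and 21.4 CPM in Scnn1b-Tg pools, in the order of the pool numbers. After LPS they were 20.2, 20.7 and 20.1 CPM in WT and 17.4, 20.1 and 22.3 CPM in Scnn1b-Tg pools. All WT LPS libraries lay below all WT medium libraries, whereas the Scnn1b-Tg libraries overlapped between treatments. For WT AMs the log2 difference with LPS was -0.28 (SE 0.10, edgeR adjusted p = 0.0535), and for Scnn1b-Tg AMs it was -0.13 (SE 0.10, edgeR adjusted p = 0.355). The value was lower with LPS in 5 of 6 pools. The WT difference passed the threshold in 5 of 21 alternatives. Among these were the fit without the WT medium 17 library (log2 -0.34, edgeR adjusted p = 0.0395) and DESeq2 (log2 -0.27, adjusted p = 0.0275). The others were a stricter low-count filter, counts divided by 5, and limma voom with the pool as a random effect.

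Pycard (ENSMUSG00000030793, chromosome 7, 127989708 to 127993867, minus strand), the adaptor that joins sensors to caspase-1, varied more between pools than between treatments. In medium it stood at 101, 70.3 and 107 CPM in WT and at 63.7, 101 and 82.0 CPM in Scnn1b-Tg pools. With LPS the values were 81.5, 42.7 and 76.5 CPM in WT and 48.6, 85.9 and 68.2 CPM in Scnn1b-Tg pools. Each pool had less Pycard with LPS than with medium, but the groups overlapped, and pools WT 17 and Scnn1b-Tg 17 were lowest in both treatments. For WT AMs the log2 difference was -0.47 (SE 0.22, edgeR adjusted p = 0.139), and for Scnn1b-Tg AMs it was -0.29 (SE 0.22, edgeR adjusted p = 0.347). With the pool as a block, edgeR called a fall in both genotypes (log2 -0.51, SE 0.08, adjusted p = 0.00247 in WT and log2 -0.30, SE 0.08, adjusted p = 0.0237 in Scnn1b-Tg AMs). Without the WT LPS 16 library the WT difference was -0.78 (edgeR adjusted p = 0.0115) in the unblocked fit. Exons of Pycard overlap the antisense gene Gm45205 by 485 bases and counting ignored strand, so reads of the pair cannot be told apart there.

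Casp1 (ENSMUSG00000025888, chromosome 9, 5298517 to 5307265, plus strand), the protease activated by the inflammasome, rose in both genotypes from an already high level. Medium levels were 97.9, 82.0 and 98.8 CPM in WT and 84.6, 85.2 and 85.1 CPM in Scnn1b-Tg pools. With LPS, WT pools held 165, 133 and 174 CPM and Scnn1b-Tg pools 166, 181 and 207 CPM. No LPS library overlapped a medium library, and the Scnn1b-Tg medium libraries were nearly alike, with an SD of 0.353 CPM. WT AMs gained 1.69-fold (log2 0.76, SE 0.11, edgeR adjusted p = 0.000285), and Scnn1b-Tg AMs gained 2.16-fold (log2 1.11, SE 0.11, edgeR adjusted p = 1.34e-05).

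Casp4 (ENSMUSG00000033538, chromosome 9, 5308828 to 5336783, plus strand) lies directly downstream of Casp1 on the same strand and rose more than it. In medium it stood at 13.5, 11.4 and 15.5 CPM in WT and at 10.3, 13.5 and 10.1 CPM in Scnn1b-Tg pools. With LPS the levels were 37.6, 31.5 and 45.9 CPM in WT and 43.8, 54.3 and 62.0 CPM in Scnn1b-Tg pools. The LPS and medium libraries did not overlap, and after LPS only the lowest Scnn1b-Tg library fell inside the WT range. WT AMs gained 2.83-fold (log2 1.50, SE 0.13, edgeR adjusted p = 9.19e-06), and Scnn1b-Tg AMs gained 4.69-fold (log2 2.23, SE 0.13, edgeR adjusted p = 4.35e-07).

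Of the members, the DNA upstream of Casp4 alone held matches to the motifs searched, and it is shown beside that of its neighbour Casp1 and of Nlrp3, the other members called higher in both genotypes. The sequences are the 250 bases before a RefSeq start site on GRCm38.p6 (the build also called mm10), 5′ to 3′, with matches to an NF-kB-type motif (GGG, any 3 bases, TTCC) on either strand in capitals.
Casp4 (chr9:5308599-5308848, plus strand): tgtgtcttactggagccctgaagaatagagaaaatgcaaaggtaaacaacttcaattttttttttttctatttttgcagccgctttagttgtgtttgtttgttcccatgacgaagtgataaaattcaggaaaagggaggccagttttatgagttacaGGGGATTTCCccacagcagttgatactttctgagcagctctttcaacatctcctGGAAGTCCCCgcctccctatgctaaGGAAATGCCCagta
Casp1 (chr9:5298267-5298516, plus strand): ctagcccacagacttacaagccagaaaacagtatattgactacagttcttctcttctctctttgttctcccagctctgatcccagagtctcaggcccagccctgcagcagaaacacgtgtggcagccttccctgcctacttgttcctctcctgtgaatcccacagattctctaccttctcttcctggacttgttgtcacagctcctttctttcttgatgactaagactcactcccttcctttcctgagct
Nlrp3 (chr11:59541319-59541568, plus strand): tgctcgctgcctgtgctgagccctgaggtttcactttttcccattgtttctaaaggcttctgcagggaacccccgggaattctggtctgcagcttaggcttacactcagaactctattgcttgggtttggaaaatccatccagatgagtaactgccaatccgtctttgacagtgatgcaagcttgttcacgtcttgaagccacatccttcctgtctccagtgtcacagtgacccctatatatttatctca
In the Casp4 sequence the matches begin at bases 158 (plus strand), 212 (minus strand) and 237 (minus strand), and the last of them lies within the start of the gene as annotated by GENCODE. Windows of 300 bases, 250 before and 50 after a start site, were searched on both strands for this motif, for an interferon-response type motif (GAAA, any 2 bases, GAAA) and for a STAT-type motif (TTC, any 3 bases, GAA). The 3 matches do not overlap each other. Of 32851 mouse windows, 5.56% held the NF-kB-type motif at least once. The motif occurred 3 times or more in 7 windows, among them both windows of Casp4. These Casp4 windows overlap and hold the same 3 matches, so they do not count as separate cases. The cut at 3 equals the Casp4 count, and the motifs were chosen with earlier results of these data known. Whether Casp4 holds more matches than chance would give was therefore not tested. The interferon-response type motif was in 3.44% and the STAT-type motif in 8.30% of windows. RefSeq windows were at hand for 6 of the 7 members (8 windows, not for Gsdmd), and none but those of Casp4 held a match. A match describes letters in a window and not binding of a factor.

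Casp8 (ENSMUSG00000026029, chromosome 1, 58795374 to 58847503, plus strand), the caspase of death receptors, was the only member called lower in the unblocked fit. Pycard was also lower in all 6 pools, and was called with the pool as a fixed block. Medium levels were 100, 97.4 and 106 CPM in WT and 111, 113 and 107 CPM in Scnn1b-Tg pools. With LPS they were 89.6, 83.8 and 91.6 CPM in WT and 89.6, 92.1 and 92.5 CPM in Scnn1b-Tg pools. All LPS libraries lay below all medium libraries and the fall occurred in all 6 pools, although it was small. For WT AMs it came to -0.20 on the log2 scale (SE 0.06, edgeR adjusted p = 0.0408), and for Scnn1b-Tg AMs to -0.27 (SE 0.06, edgeR adjusted p = 0.00682). The WT call was lost when any 1 of the 12 libraries was left out, with edgeR adjusted p-values from 0.0522 to 0.202.

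Gsdmd (ENSMUSG00000022575, chromosome 15, 75862327 to 75867408, plus strand), which encodes the pore-forming executor, was higher with LPS in all 6 pools by a small margin. Its medium levels were 80.8, 78.8 and 89.7 CPM in WT and 80.4, 103 and 89.7 CPM in Scnn1b-Tg pools. With LPS they were 93.7, 88.0 and 110 CPM in WT and 103, 122 and 107 CPM in Scnn1b-Tg pools. In WT the treatments overlapped, and in Scnn1b-Tg AMs the highest medium library lay just below the lowest LPS library, both at 103 CPM when rounded. For WT AMs the log2 difference was 0.22 (SE 0.08, edgeR adjusted p = 0.0609), and for Scnn1b-Tg AMs it was 0.29 (SE 0.08, edgeR adjusted p = 0.0172). The Scnn1b-Tg call was lost without Scnn1b-Tg medium 17, medium 19, LPS 17 or LPS 18, at edgeR adjusted p-values of 0.0751, 0.0746, 0.0735 and 0.0686. With the pool as a block, WT AMs were called as well (log2 0.22, SE 0.06, edgeR adjusted p = 0.0216).

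LPS also moved markers of cell identity in these libraries. Summed AM markers went from between 19309 and 19844 CPM in WT medium to between 13031 and 14962 CPM in WT LPS libraries, and from between 23088 and 26390 to between 14592 and 20549 CPM in Scnn1b-Tg libraries. These sums were led by Chil3, and the markers did not move together. Siglecf, the surface lectin used to sort AMs, averaged 115 ± 5.13 and 11.1 ± 2.40 CPM in WT medium and LPS libraries and 118 ± 13.4 and 6.47 ± 1.51 CPM in those of Scnn1b-Tg AMs (SD, n = 3 each). Marco, a scavenger receptor, averaged 631 ± 38.6 and 1255 ± 112 CPM in WT medium and LPS libraries and 512 ± 186 and 1574 ± 582 CPM in those of Scnn1b-Tg AMs. Summed markers of monocytes, of which 6 to 7 of 9 were above the floor in a group and Treml4 was the highest, went from 72.1 to 88.5 CPM in WT medium to 177 to 218 CPM in WT LPS libraries, and from 48.6 to 65.2 to 137 to 195 CPM in Scnn1b-Tg libraries. Summed dendritic cell markers, with 4 to 5 of 6 above the floor in a group and Ccr7 the highest, were 2.79 to 3.78 CPM in WT medium, 9.47 to 10.2 CPM in WT LPS, 5.12 to 7.23 CPM in Scnn1b-Tg medium and 13.4 to 20.3 CPM in Scnn1b-Tg LPS libraries, without overlap between the genotypes. Summed eosinophil markers, mainly Ear6 with the defining gene Prg2 at the floor, were 14.8 to 20.5 CPM in WT medium, 2.34 to 3.85 CPM in WT LPS, 8.93 to 20.4 CPM in Scnn1b-Tg medium and 1.48 to 8.54 CPM in Scnn1b-Tg LPS libraries. The part of these markers in the differences of the members was not tested. In bulk RNA, a change in the number of cells of a type cannot be told apart from a change of RNA per cell.

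**Figure D2:**
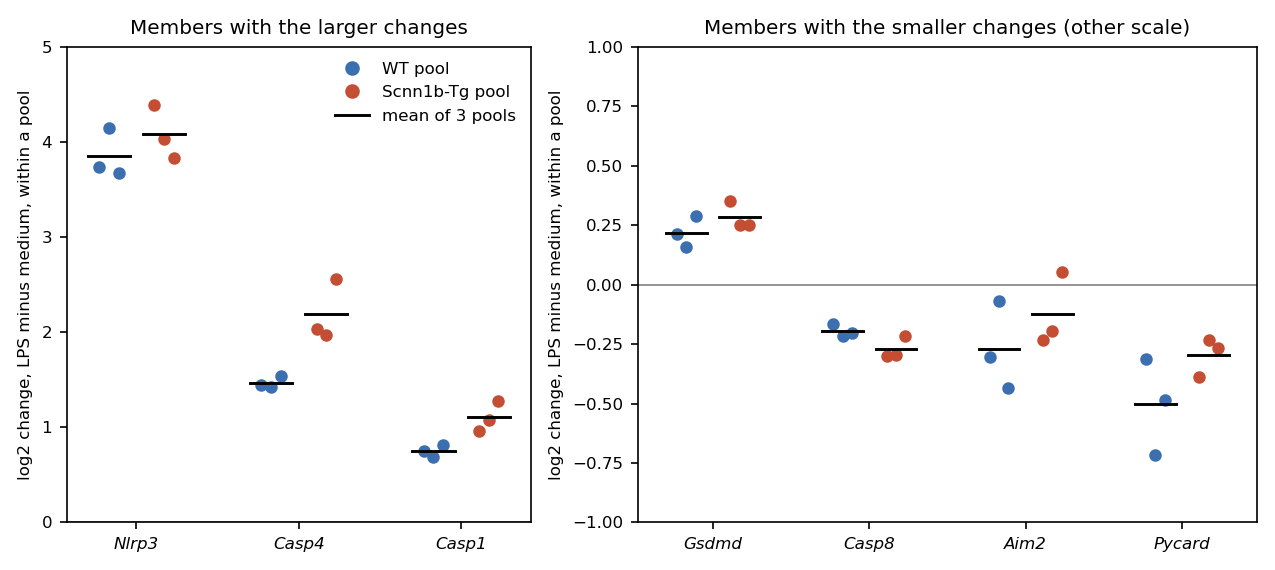
Change in log2 of CPM plus 0.5 from medium to LPS within each pool (y axis) for the 7 genes, with WT pools in blue, Scnn1b-Tg pools in red and the mean of 3 pools as a bar. The left panel runs from 0 to 5 and the right panel from -1 to 1. For Casp4 and Casp1 the 3 Scnn1b-Tg pools lie above the 3 WT pools, and for the other 5 genes the pools of the genotypes overlap.

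The levels were set side by side per kilobase of the principal transcript to order the members within a group. In WT medium, Casp1 led with 62.1 ± 6.29 CPM per kilobase, followed by Gsdmd with 46.4 ± 3.23, Casp8 with 39.1 ± 1.60 and Pycard with 24.5 ± 5.21 (SD, n = 3 each). Casp4 with 9.39 ± 1.42 and Aim2 with 8.71 ± 1.00 CPM per kilobase did not differ beyond their spread, and Nlrp3 came last with 1.56 ± 0.263. In WT LPS libraries Nlrp3 stood at 24.2 ± 3.70 CPM per kilobase, within the spread of Casp4 at 26.7 ± 5.04, and Aim2 came last at 7.17 ± 0.113. In Scnn1b-Tg LPS libraries Casp4 stood at 37.2 ± 6.38 CPM per kilobase, within the spread of Casp8 at 35.4 ± 0.594, below Gsdmd at 61.8 ± 5.67 and Casp1 at 123 ± 13.9. The order depends on the lengths used. With the union of all annotated exons, chosen after the data were seen, Casp4 (3710 bases in place of 1435) stood at 3.63 ± 0.548 CPM per kilobase in WT medium, below Aim2 at 7.07 ± 0.810. On that scale Casp4 was at 10.3 ± 1.95 in WT LPS libraries, below Nlrp3 at 24.0 ± 3.66, and at 14.4 ± 2.47 in Scnn1b-Tg LPS libraries, below Casp8 at 31.6 ± 0.530, while Gsdmd in WT medium came level with Casp8 at 35.0 CPM per kilobase each. The value of Pycard rests on an annotated transcript of 3800 bases that overlaps the antisense gene.

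Casp4 was also expressed as a percentage of its neighbour Casp1 within each library, per length of the principal transcript (another length for Casp4 would scale all libraries alike). The ratio was 14.4, 14.5 and 16.3% in WT medium and 12.7, 16.5 and 12.3% in Scnn1b-Tg medium libraries. With LPS it was 23.8, 24.7 and 27.6% in WT and 27.6, 31.3 and 31.3% in Scnn1b-Tg libraries. LPS therefore changed the balance of the pair towards Casp4 in all 6 pools, from 15.1 ± 1.08 to 25.4 ± 1.99% in WT and from 13.8 ± 2.29 to 30.0 ± 2.15% in Scnn1b-Tg AMs (SD, n = 3 each). The LPS ranges of the genotypes met at 27.6%.

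The genotypes were then compared within each treatment, to ask whether AMs from mucus-obstructed airways carry other amounts of these transcripts. None of the 7 members passed an adjusted p of 0.05 (edgeR) in medium, where 0.262% of tested genes did, or with LPS, where 0.051% did. In DESeq2 the count of members was 0 in both comparisons too, with 3.72% of genes called in medium and 1.06% with LPS. At an unadjusted p under 0.05 there were 2 members in medium (Casp4 and Aim2), where 13% of tested genes passed, and 1 with LPS (Casp4), where 6.78% passed.

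Casp4 had the largest fitted differences of the 7 members in both treatments, in opposite directions. It was lower in Scnn1b-Tg AMs in medium (log2 -0.36, SE 0.13, 95% interval -0.65 to -0.07, edgeR adjusted p = 0.292) and higher with LPS (log2 0.37, SE 0.13, 95% interval 0.08 to 0.66, edgeR adjusted p = 0.568), without passing the adjusted threshold in either. Both directions were the same in each batch, at -0.26 and -0.39 in medium and 0.34 and 0.34 with LPS for batches 1 and 2. Batch 1 held only 1 Scnn1b-Tg pool and batch 2 only 1 WT pool, so each value rests on a single library of a genotype. Pycard differed in medium by -0.34 (SE 0.23, 95% interval -0.85 to 0.17, edgeR adjusted p = 0.591), nearly as far as Casp4. Aim2 differed in medium by -0.24 (SE 0.10, 95% interval -0.46 to -0.01, edgeR adjusted p = 0.355). Casp8 was the member whose medium libraries did not overlap between genotypes, where 18.4% of tested genes did not. Its values were 97.4 to 106 CPM in WT and 107 to 113 CPM in Scnn1b-Tg libraries, a log2 difference of 0.11 (SE 0.07, edgeR adjusted p = 0.540). With LPS no member separated the genotypes, where 9.11% of tested genes did.

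The intervals bound what the other differences could be. For Nlrp3 with LPS the log2 difference was 0.02 with a 95% interval from -0.29 to 0.33, and for Gsdmd it was 0.12 with an interval from -0.06 to 0.31. For Pycard the interval with LPS ran from -0.67 to 0.35, the widest of the 7, so a difference of moderate size was not detectable for this gene with 3 pools per genotype.

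**Figure D3:**
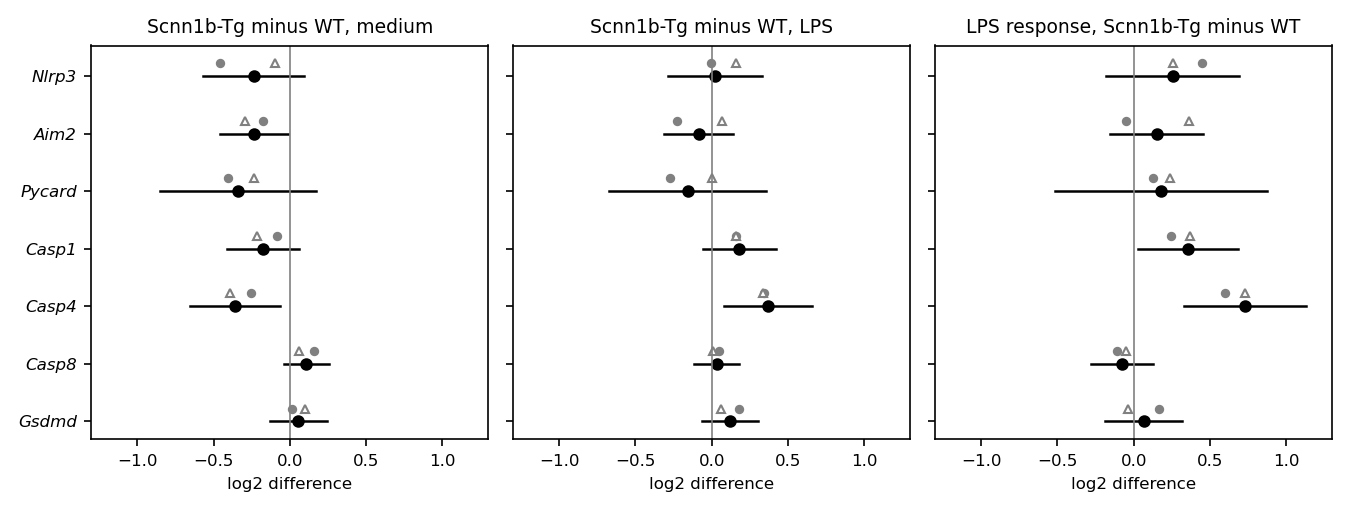
Fitted log2 differences of the 7 genes (x axis) between Scnn1b-Tg and WT AMs in medium (left), with LPS (middle), and in the response to LPS (right). Black points and bars are the estimate and its 95% interval, grey discs and open triangles above them the difference within batch 1 and batch 2, and the grey line is 0. The intervals of Casp4 and Aim2 lie below 0 in medium, and that of Casp4 lies above 0 with LPS. In the right panel the intervals of Casp4 and Casp1 lie above 0. None of these differences has an edgeR adjusted p under 0.05.

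For every member, the difference between the LPS responses of the genotypes was also tested as an interaction. No member passed an adjusted p of 0.05 in edgeR, where 0% of all tested genes did, and 2 members had an unadjusted p under 0.05, where 5.79% of tested genes did. Casp4 changed by 1.44, 1.43 and 1.54 in WT pools 16, 17 and 18 and by 2.03, 1.97 and 2.56 in Scnn1b-Tg pools 17, 18 and 19, on the scale of log2 of CPM plus 0.5. The 3 Scnn1b-Tg pools thus lay above the 3 WT pools. The interaction of Casp4 was 0.73 (SE 0.18, 95% interval 0.33 to 1.13, edgeR adjusted p = 0.459). It came to 0.60 within batch 1 and 0.73 within batch 2, each with only 1 pool of a genotype. DESeq2 called the Casp4 interaction (log2 0.72, SE 0.20, adjusted p = 0.0436), together with 0.561% of tested genes. Over the other alternatives its adjusted p ran from 0.159 to 1.00.

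Casp1 changed by 0.69 to 0.81 in WT pools and by 0.97 to 1.28 in Scnn1b-Tg pools, again without overlap. Its interaction was 0.36 (SE 0.15, 95% interval 0.03 to 0.68, edgeR adjusted p = 0.823). Batch 1 alone gave 0.24, and batch 2 alone 0.37, again each with only 1 pool of a genotype. Non-overlap of the pool changes, seen for these 2 members of 7, was seen for 16.5% of all tested genes. For Nlrp3 the interaction was 0.26 (SE 0.20, 95% interval -0.18 to 0.69, edgeR adjusted p = 0.967), and its pool changes overlapped.

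Transcripts of the substrates of caspase-1 moved in opposite directions with LPS, with the fall of Il18 called in WT AMs only. Il1b, which encodes the precursor of interleukin-1 beta, stood at 2.78 ± 0.516 CPM in WT medium and 148 ± 12.8 CPM in WT LPS libraries, and at 2.36 ± 0.574 and 208 ± 58.4 CPM in those of Scnn1b-Tg AMs (SD, n = 3 each). The fitted log2 fold change was 5.73 for WT (SE 0.26, edgeR adjusted p = 1.01e-07) and 6.46 for Scnn1b-Tg AMs (SE 0.27, edgeR adjusted p = 4.09e-08). Il18, present before stimulation, fell from 43.3 ± 4.70 to 30.6 ± 7.38 CPM in WT (log2 -0.50, SE 0.16, edgeR adjusted p = 0.0382), and stood at 43.9 ± 3.38 and 39.0 ± 4.46 CPM in Scnn1b-Tg AMs (log2 -0.17, edgeR adjusted p = 0.457). Within pools, Il18 was lower with LPS in all 6. Pool changes of both genes lay higher in all Scnn1b-Tg than in all WT pools, where 16.5% of all tested genes had no overlap in either direction. The interactions of Il1b and Il18 were 0.73 and 0.33, with edgeR adjusted p-values of 0.851 and 0.957. Exons of Il1b overlap those of the antisense gene Il1bos, so its counts may include both.

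A list of 62 other genes of inflammasome and cell death pathways was described in the same fit, of which 53 were tested. Nlrp6, Nlrp12, Gbp5, Gsdma, Gsdmc and Casp12 were not analysed here, and Mefv, Pstpip1 and Il1r2 did not pass the low-count filter. With LPS, 24 rose and 11 fell in WT AMs, and 24 rose and 13 fell in Scnn1b-Tg AMs, where 30.9 and 36.7% of all tested genes were called. The list had a median log2 fold change of 0.10 and 0.14 beside 0.00 and -0.02 over all tested genes. Between the genotypes 1 gene of the list passed in medium (Il1rn, lower) and 0 with LPS or in the interaction. The LPS changes of the WT and Scnn1b-Tg pools did not overlap for 10 of the 53, beside 16.5% of all tested genes.

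Of 10 other sensors tested, 3 rose and 4 fell in WT AMs, and 3 rose and 5 fell in Scnn1b-Tg AMs. Nod2, the receptor for muramyl dipeptide, rose (log2 2.32 in WT and 2.11 in Scnn1b-Tg AMs). Nlrp1b, a sensor that proteases can activate, fell in WT from 4.92 to 0.846 CPM (log2 -2.54) and in Scnn1b-Tg AMs from 5.88 to 0.757 CPM (log2 -2.95), Nlrp10 fell too (log2 -1.42 and -1.75), and so did Naip1, a receptor for the bacterial secretion needle (log2 -1.06 and -1.81). Nlrp1b and Naip1 belong to families of near-identical copies, so their counts are uncertain.

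Of 9 genes that license NLRP3 or control ion flux and redox state, 2 rose and 3 fell in WT, and 3 rose and 4 fell in Scnn1b-Tg AMs. Cmpk2, a mitochondrial kinase that supplies nucleotides for new mitochondrial DNA, rose by 2.79 and 2.41 on the log2 scale, and Panx1, a channel for ATP release, by 0.60 and 1.02, in WT and Scnn1b-Tg AMs. All 7 interferon-inducible partners tested were called in both genotypes, 6 higher and 1 lower. The higher ones included Gbp2, a guanylate-binding protein (log2 3.76 and 3.72), Gm12250, also named Irgb10 (2.29 and 1.91), Zbp1, a sensor of Z-form nucleic acids (2.41 and 2.07), and Ifi203 and Ifi204 of the Aim2-like family (2.49 and 1.83, 1.51 and 1.09). Aim2 itself, of the same family, was not among the genes that rose.

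Of 9 effectors and substrates, 4 rose and 2 fell in WT, and 4 rose and 1 fell in Scnn1b-Tg AMs. Il1a, encoding interleukin-1 alpha, rose in WT from 75.0 to 671 CPM and in Scnn1b-Tg AMs from 67.3 to 703 CPM, and its exons overlap those of Gm14023 on the other strand. Ninj1, whose product ruptures the plasma membrane late in lytic death, rose by 1.64 and 1.79 on the log2 scale (edgeR adjusted p = 4.53e-06 and 1.74e-06), where Gsdmd, which acts before it, differed by 0.22 and 0.29.

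Of 12 inhibitors and antagonists, 8 rose and 1 fell in WT, and 7 rose and 2 fell in Scnn1b-Tg AMs. Tnfaip3, which encodes the ubiquitin-editing enzyme A20, rose by 2.36 and 2.67 on the log2 scale, and Cflar, which encodes the caspase-8 inhibitor c-FLIP, by 1.80 and 2.17. Il18bp, the decoy for interleukin-18, rose by 1.90 and 1.63, Trim30a by 1.16 and 1.06, Birc3 by 0.93 and 1.14 and Card19 by 0.72 and 1.10, while Nlrc3 fell (-1.46 and -1.88). Il1rn, the receptor antagonist of interleukin-1, rose in WT from 79.6 to 282 CPM and in Scnn1b-Tg AMs from 35.7 to 252 CPM. In medium it was lower in Scnn1b-Tg than in WT AMs (log2 -1.18, SE 0.12, edgeR adjusted p = 0.00627). Of 6 partners of caspase-8 and of necroptosis, Mlkl, the executor of necroptosis, rose in both genotypes (log2 1.00 and 0.87), and the other 5 were not called.

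**Figure D4:**
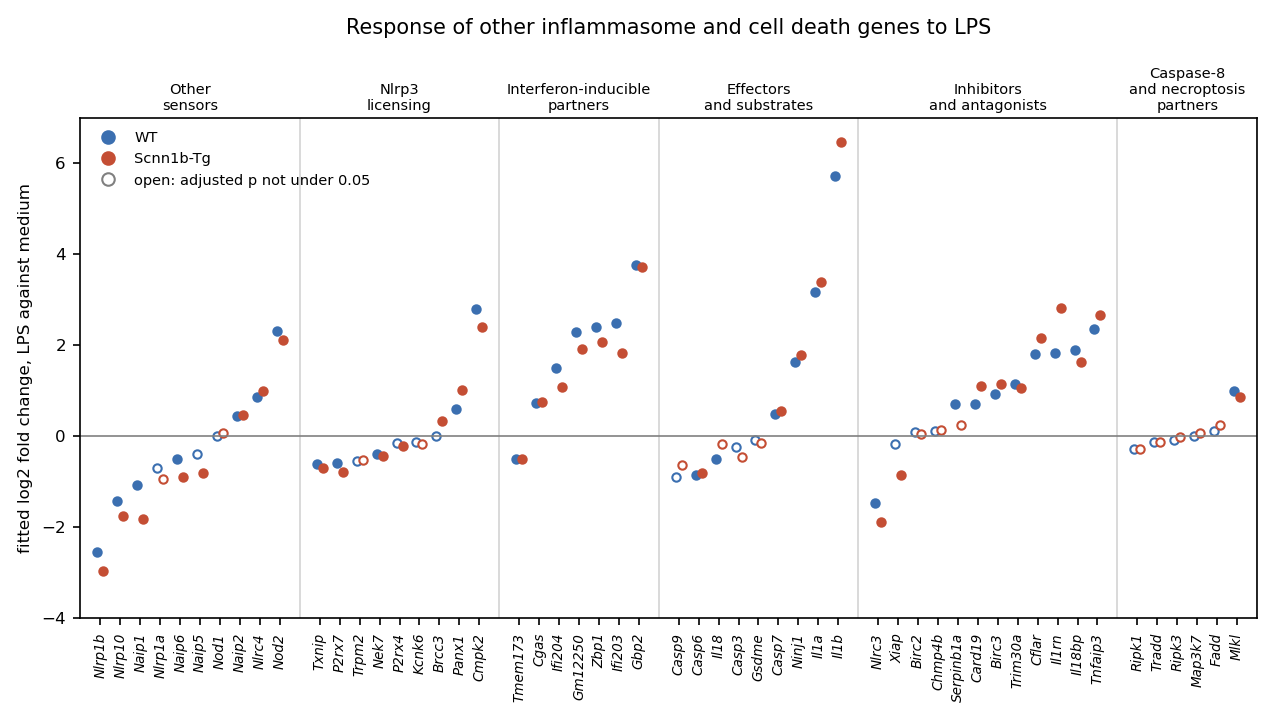
Fitted log2 fold change with LPS (y axis) of the 53 other inflammasome and cell death genes tested, grouped by role along the x axis and ordered within a role by the WT value, for WT (blue) and Scnn1b-Tg (red) AMs. Filled points have an adjusted p under 0.05 and open points do not. Il1b stands highest at 5.73 and 6.46, the interferon-inducible partners are all called, and 1 of 6 partners of caspase-8 and necroptosis is called.

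The genes most like each called member were sought among 9094 other tested genes with a mean of at least 5 CPM, by the root-mean-square (RMS) difference of log2(CPM + 0.5) over the 12 libraries after centring each gene on its mean. These values describe the same libraries that gave the members' changes. Nlrp3 was most like Zc3h12c (RMS difference 0.187), Socs3 (0.241) and Vasn (0.289), where its own spread around its mean was 1.99. Casp4 was most like Igsf6 (0.140), Gch1 (0.158) and Pilra (0.171), against a spread of 0.954. Casp1 was most like Psma5 (0.0879), Gm8394 (0.0921) and Rhof (0.111), against 0.490. For Casp8 (Babam1, Renbp and Maea, 0.0504 to 0.0551) and Gsdmd (Selenow, Slc7a6os and Sin3b, 0.0800 to 0.0899) the members' own spreads were only 0.132 and 0.191, so likeness there means little more than small change.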

How the data were processed

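The authors aligned read pairs of 125 bases to mm10 with HISAT2, ignoring strand (nf-core RNAseq 1.2), and quantified GENCODE M20 genes with StringTie. The deposited values are estimated counts, whole numbers that StringTie's helper derived from coverage, so a read can be worth more than 1 count, and dividing by 5 was an alternative. They were used on the deposited scale. A group whose libraries held at most 8 counts (0.137 to 0.163 CPM) was at the detection floor.

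In R 4.3.3 with edgeR 4.0.16, genes passing filterByExpr (minimum count 10, total 15) were fitted with TMM scaling, group and batch terms over all 12 libraries, and two-sided quasi-likelihood tests were adjusted by Benjamini-Hochberg over 13729 genes (threshold 0.05). DESeq2 1.42.0, limma 3.58.1 and leaving out each library were alternatives. CPM are TMM-scaled means ± SD, and pool changes are differences of log2(CPM + 0.5). Intervals on fitted values are 95%. Pool numbers in the sample titles pair the libraries, and both libraries of a pool were taken to come from the same animals. Their deviations from group means, not adjusted for batch, correlated by 0.212 to 0.497 in all 6 pools. Libraries of the same number and treatment but of different genotype correlated by 0.139 to 0.438. The correlation within pools therefore does not by itself show the pairing. Annotation was GENCODE M21 (20158 IDs matched, 393 did not), and promoters and motif matches used RefSeq.

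Members, gene lists and promoter motifs were chosen with earlier results of these data known. The 7 members, Il1b and Il18 were always named. Other pathway genes were named at an adjusted p under 0.05 with an absolute log2 fold change of at least 1 under LPS, or at an adjusted p under 0.05 between genotypes. For called members, the 3 most similar genes were named. Whether a pool is an independent group of animals is as the labels give it. The p-values of the unblocked fits measure the spread between the libraries of a group and do not pair medium and LPS by pool. Those with the pool as a fixed block measure the spread of the LPS change between pools. Surface proteins, cleavage and secretion were not analysed here.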

Additional observations from a re-analysis of the deposited data

How the results depend on the processing

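Of 735 recomputed values of the members' fold changes, 694 kept their direction and side of the threshold, 8 without a call changed sign, 13 gained a call and 20 lost one, and no called value reversed. With the replicate block as a random pool effect (limma voom, pool correlation 0.327), 7 members were called in WT AMs in place of 4, adding Gsdmd, Aim2 and Pycard, and 5 in Scnn1b-Tg AMs. With the pool as a fixed block 6 were called in each genotype, and no interaction call changed. The fixed block cannot be fitted to the genotype comparisons, because no pool spans both genotypes. The random pool effect changed no genotype or interaction call. DESeq2 called 1 member (Casp4) in the interaction in place of 0. Leaving out 1 library in turn gave 3 to 4 called members for LPS in WT AMs, 4 to 5 for LPS in Scnn1b-Tg AMs, and 0 to 0 in both genotype comparisons and the interaction. The WT call of Casp8 was also lost with no low-count filter (log2 -0.17, adjusted p = 0.117), no batch term (-0.20, 0.0812) and the compared groups alone (-0.16, 0.251). Without the batch term the Scnn1b-Tg call of Gsdmd was lost (0.28, adjusted p = 0.102). The sign changes were in Nlrp3 and Pycard with LPS between genotypes and in the Pycard interaction. The pathway list was not refitted under the alternatives. With 3 pools a group, what could be detected depended on a gene's spread between pools, which was widest for Pycard.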
